A study of Mus musculus with 4 samples.

Results

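Melanocytes, the pigment cells of skin, were followed here through 10 genes: Tyr, Tyrp1, Dct, Pmel, Mlana, Mitf, Slc45a2, Oca2, Kit and Mc1r. The genes were chosen by name, and their probes were found by matching the accession of each array probe to RefSeq. Of the 10 genes, 9 had a matched probe, with 11 probes in all, out of 16862 named genes on the arrays. No probe was matched to Mlana, which is not analysed here. The RNA came from mouse skin, and for the tail the labels name skin whereas the extraction protocol names epidermis. The 4 groups were treated back skin, untreated back skin, treated tail skin and untreated tail skin, each with 3 animals by the study design and each represented by 1 one-colour array. Treated skin received methyl aminolevulinate cream, 2.5 h of darkness and 636 nm red light, with a dose of 2.5 J/cm2 for the shaved back and 10 J/cm2 for the tail, and was taken 48 h later. The cream is turned by cells into the light-absorbing heme precursor protoporphyrin IX, so that light produces reactive oxygen species in the tissue. Strain, age, coat colour and hair cycle stage are not given in the sources used here, nor is it known from them if an array holds RNA of all 3 animals. With 1 array per group the differences have no replicates behind them and were not tested.

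Melanin is made inside melanosomes, which melanocytes hand on to keratinocytes. Tyrosinase (Tyr) carries out the first and rate-limiting step, and the related enzymes Dct and Tyrp1 act later on the way to the dark pigment eumelanin. Pmel forms the fibrils on which melanin is laid down, and Oca2 and Slc45a2 are membrane transport proteins needed for the ion balance of the melanosome. The transcription factor Mitf switches on many of these genes. The hormone receptor Mc1r, which steers the choice between dark and yellow pigment, and the receptor tyrosine kinase Kit, which melanocytes need to survive and migrate, act upstream. In mice, melanocytes of hairy back skin lie mostly in the hair follicles, whereas the tail also holds them in the epidermis between the follicles.

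Dct and Tyrp1 were both far lower in back than in tail skin, so the windows around the start sites of the tyrosinase family are shown, each from 250 bases before to 50 bases after the start (RefSeq, build GRCm38.p6). Tyr lies on the minus strand at chr7:87493463-87493762, Tyrp1 on the plus strand at chr4:80833963-80834262 and Dct on the minus strand at chr14:118052197-118052496. Sequences run 5′ to 3′ in the direction of the gene. Capitals mark matches, on either strand, to the E-box hexamer CATGTG or to AGTCATGTGCT, the longest run around that hexamer that the Tyr and Tyrp1 windows share, which has the letters of the M-box known as a binding sequence of Mitf.
Tyr: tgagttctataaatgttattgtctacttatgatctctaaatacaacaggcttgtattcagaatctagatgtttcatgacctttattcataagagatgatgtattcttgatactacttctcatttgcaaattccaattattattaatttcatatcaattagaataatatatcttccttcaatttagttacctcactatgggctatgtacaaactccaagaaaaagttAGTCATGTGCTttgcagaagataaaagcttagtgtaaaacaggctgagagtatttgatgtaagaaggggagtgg
Tyrp1: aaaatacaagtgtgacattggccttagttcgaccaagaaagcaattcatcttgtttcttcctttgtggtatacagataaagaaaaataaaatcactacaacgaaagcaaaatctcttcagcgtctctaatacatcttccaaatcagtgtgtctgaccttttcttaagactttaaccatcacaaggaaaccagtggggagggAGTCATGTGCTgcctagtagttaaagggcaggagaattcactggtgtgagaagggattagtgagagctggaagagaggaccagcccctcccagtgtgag
Dct: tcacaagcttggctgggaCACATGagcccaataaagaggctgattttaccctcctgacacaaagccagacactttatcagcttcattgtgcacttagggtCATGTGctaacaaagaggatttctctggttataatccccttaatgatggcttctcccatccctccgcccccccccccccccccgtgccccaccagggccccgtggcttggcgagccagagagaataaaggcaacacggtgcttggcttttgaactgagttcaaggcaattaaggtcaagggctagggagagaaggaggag
The 11 letters of the M-box were found in 7 of 32851 promoter windows of the table (0.0213%), and the windows of Tyr and Tyrp1, from which the run was taken, are among these 7. They begin 24 bases before the start in Tyr and 49 bases before it in Tyrp1. The hexamer CATGTG was in 14.2% of all windows and in those of 5 of the 7 pigment genes in the table, Dct, Mc1r, Oca2, Tyr and Tyrp1. The other E-box searched, CACGTG, was in 7.15% of all windows and in none of the 10 windows of these 7 genes. A match describes letters only and is not evidence of binding.

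Signals were scaled to the 75th percentile of their array, which was 1204 on the treated back array, 1860 on the untreated back array, 909 on the treated tail array and 7261 on the untreated tail array. The untreated tail array was thus by far the brightest, with 14951 of 16862 named genes well above background, against 13354 to 14287 on the other 3 arrays. Levels are given as percent of that 75th percentile and serve to compare arrays for the same probe, not probes with each other. Differences are log2 values with the error that the scanner software gives for the spots, which covers spots and not animals. Calls of higher or lower begin at 2-fold, a log2 value of 1. None of the 11 probes was saturated on any array. In bulk skin, fewer melanocytes and less RNA per melanocyte cannot be told apart. The sources name the tail tissue both as skin and as epidermis. A difference in the layer taken from back and tail therefore cannot be told apart from these either.

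**Figure D1:**
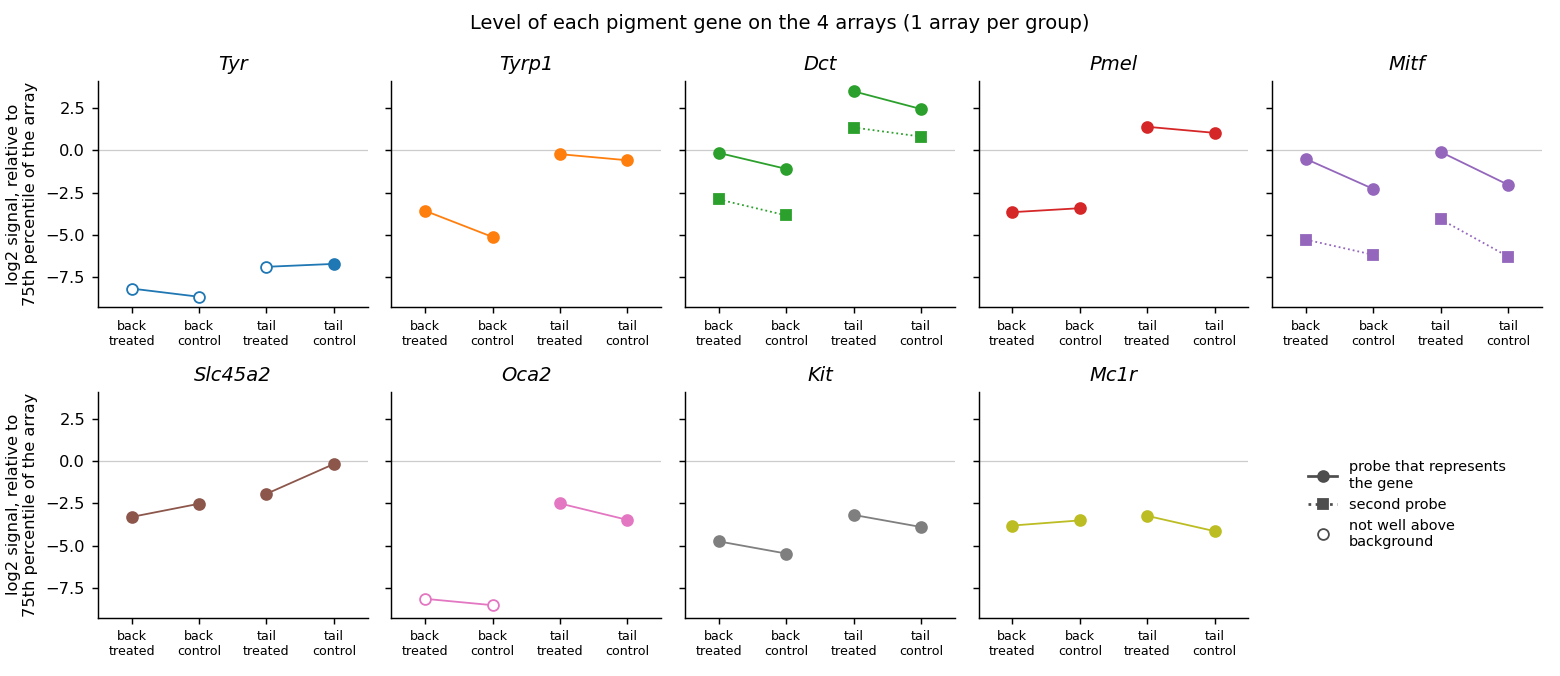
Scaled log2 signal (vertical axis, relative to the 75th percentile of the array) of each pigment gene on the treated back, untreated back, treated tail and untreated tail arrays, 1 point per probe and array. Circles joined by solid lines are the probe that represents the gene, squares with dotted lines the second probe of Dct and Mitf, and open symbols are not well above background. Tyrp1, Dct, Pmel and Oca2 lie lower on both back arrays than on both tail arrays, while Mitf lies higher on both treated arrays than on both untreated ones.

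The first comparison asked how far the pigment genes differ between untreated back and untreated tail skin. Most of the pigment genes were lower in the back: of 8 genes with a value, 6 were lower, none was higher, and Mitf and Mc1r were within 2-fold. The 6 were Tyrp1, Dct, Pmel, Oca2, Slc45a2 and the receptor gene Kit, and Tyr had no value. By the same rule 17.2% of all genes were called lower, and 44.6% in either direction. The median over the 8 genes was -2.70, and that of all 12793 genes with a value was 0.19. The treated back array, set against the treated tail array, shared no array with this pair and gave the same counts, 6 of 8 lower and none higher, where 20.5% of all genes were called lower, 15.9% higher and 36.4% in either direction. Its median was -2.46, against -0.23 for all 14115 genes with a value. The light doses of the treated arrays differ, and this pair was added after the data had been examined.

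Tyrp1, which stabilises tyrosinase and acts late in eumelanin synthesis, stood at 8.40% of the 75th percentile on the treated back array, 2.87% on the untreated back array, 85.8% on the treated tail array and 66.8% on the untreated tail array. Both back arrays lay below both tail arrays. In the untreated skins Tyrp1 differed by -4.54 ± 0.23 (spot error), a 23.2-fold lower level in the back, and in the treated skins by -3.35 ± 0.21. With normexp the untreated value was -3.45. The probe was spotted 10 times, and the spread of its spots within an array was small, from 4644 to 5049 in unscaled signal on the untreated tail array. Only 0.24% of the genes measured in the untreated pair had a more negative difference.

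Dct, the dopachrome tautomerase that acts between tyrosinase and Tyrp1, stood at 90.2% on the treated back array, 46.9% on the untreated back array, 1130% on the treated tail array and 545% on the untreated tail array. It differed by -3.54 ± 0.20 between the untreated skins and by -3.65 ± 0.20 between the treated skins. Its second probe gave -4.66 and -4.26, so both probes put the back at least 11.6-fold below the tail. Tyrosinase itself was near the detection limit. Over 7 to 10 spots per array, after outlier spots were left out, its mean signal was 4.17 on the treated back, 4.61 on the untreated back and 7.68 on the treated tail array, not well above background, and 69.2 on the untreated tail array, where it was well above background. Because the lowest detectable level on these dimmer arrays, once scaled, lay above the level of Tyr on the bright one, no difference and no bound was given for Tyr with this scaling.

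Pmel, the structural protein of the melanosome, had the largest difference of the 7 pigment genes measured in the treated pair, where Oca2 had only a bound. It stood at 7.95% on the treated back array, 9.35% on the untreated back array, 264% on the treated tail array and 205% on the untreated tail array, a log2 difference of -5.05 ± 0.21 between the treated and -4.46 ± 0.21 between the untreated skins. Oca2 was not well above background on either back array, at signals of 4.25 in treated and 5.06 in untreated back skin, but reached 17.6% of the 75th percentile on the treated tail array and 8.98% on the untreated tail array. It was therefore at least 12.3-fold lower in treated back than in treated tail skin and at least 8.30-fold lower in untreated back than in untreated tail skin with this scaling. With normexp the values were -3.26 in the treated and -1.27 in the untreated pair. Slc45a2 had smaller differences, -1.37 ± 0.21 in the treated pair, or -0.82 with spike-in scaling, and -2.35 ± 0.20 in the untreated pair, and its 4 levels lay apart, at 10.1% on the treated back array, 17.4% on the untreated back array, 26.2% on the treated tail array and 88.9% on the untreated tail array.

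Among the upstream genes, Kit was also lower in the back, by -1.57 ± 0.24 in the treated and -1.57 ± 0.25 in the untreated pair. With normexp the untreated value was -0.44, within 2-fold, and the treated one -2.63. Its levels were 3.72% on the treated back array, 2.26% on the untreated back array, 11.0% on the treated tail array and 6.71% on the untreated tail array. Mitf did not follow the melanin genes. It differed by -0.41 ± 0.20 between the treated and by -0.24 ± 0.20 between the untreated skins, both within 2-fold, although its second and dim probe gave -1.20 and 0.11, and spike-in scaling put the untreated value at -1.30. Mc1r differed by -0.57 ± 0.22 between the treated and 0.64 ± 0.21 between the untreated skins, so the order of the skins was not the same in both pairs. With normexp the treated value of Mc1r was -2.25, and with spike-in scaling the untreated one was -0.42. Within the arrays of the untreated pair the change of Mitf exceeded that of Pmel by 4.21 ± 0.29 and that of Tyrp1 by 4.29 ± 0.31, values that no scaling factor can alter and that stayed at 3.37 or above after quantile normalization, cyclic loess and normexp.

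**Figure D2:**
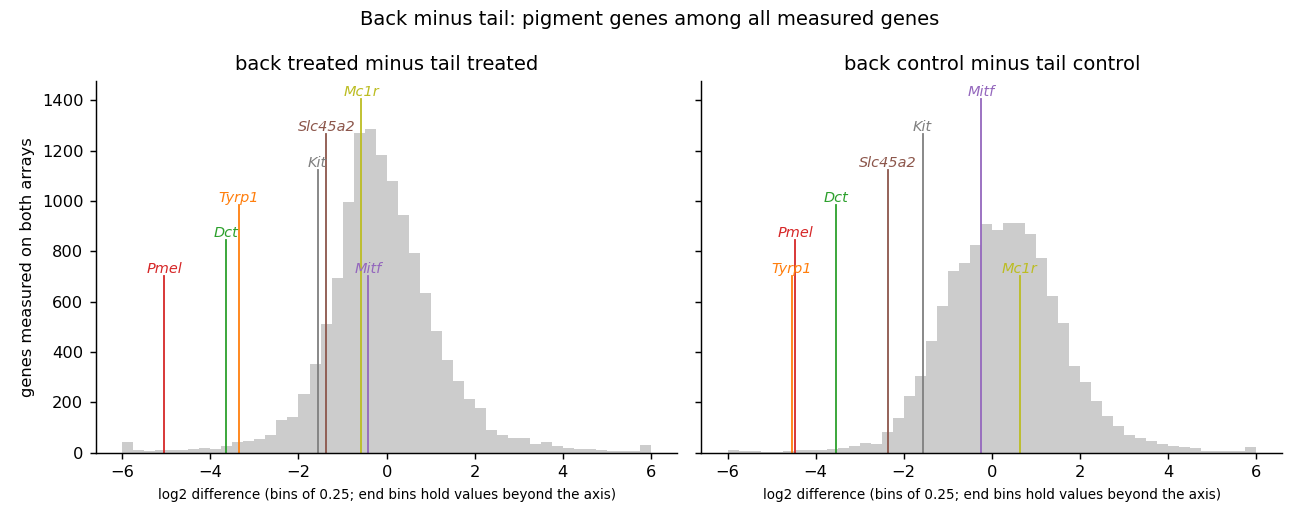
Number of genes measured on both arrays (vertical axis, grey bars) at each log2 difference of back minus tail (horizontal axis), for the treated skins on the left and the untreated skins on the right, with the pigment genes measured on both arrays as labelled lines. Pmel, Dct and Tyrp1 lie in the far left end of both distributions, whereas Mitf and Mc1r lie near the middle.

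In tail skin, the question was what remained changed 48 h after treatment. Mitf was higher on the treated array, Dct passed the 2-fold line narrowly, and Slc45a2 was lower. The other 5 genes with a value, Tyrp1, Pmel, Oca2, Kit and Mc1r, were 0.36 to 0.97 higher, within 2-fold. In all 2 of 8 genes were called higher and 1 lower, beside 27.2% and 6.55% of all genes, or 33.7% in either direction. The median over the 8 genes was 0.81 and that over all 12858 genes 0.33. These counts are not far from those of all genes, and the pigment genes are described singly below. With the arrays centred on spike-in controls, which were added at fixed amount, the median of all tail genes moved to -1.68 and all 8 genes lay below 0, Mitf closest to it at -0.18.

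Mitf stood at 93.6% of the 75th percentile on the treated tail array and at 24.3% on the untreated tail array, a difference of 1.94 ± 0.20, or 3.85-fold. Its unscaled signal over 10 spots ran from 820.4 to 885 on the treated array and from 1711 to 1828 on the untreated one, so that before scaling the treated array had the lower signal. The second probe of Mitf gave 2.20 ± 0.22. Slc45a2 stood at 26.2% on the treated tail array and at 88.9% on the untreated one, a difference of -1.76 ± 0.20, and only 1.55% of measured genes had a lower value. After normexp background correction it was -0.59, within 2-fold. Within the pair of arrays, the change of Dct exceeded that of Slc45a2 by 2.82 ± 0.29 and that of Mitf exceeded that of Slc45a2 by 3.71 ± 0.29. After normexp these values were 1.02 and 2.54.

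Dct differed by 1.05 ± 0.20 on its brighter probe and by 0.54 ± 0.20 on the other, so the call rests on 1 of its 2 probes, and it was lost with normexp at 0.43. Tyrp1 and Pmel each differed by 0.36 ± 0.20, close to the median of all genes. Oca2 differed by 0.97 ± 0.21, Mc1r by 0.91 ± 0.21 and Kit by 0.72 ± 0.21. These 3 had unscaled signals of 96.3 to 159.9 on the treated tail array, and with normexp, which weighs on dim spots, they were 2.53, 2.99 and 2.81.

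In back skin, the same question was asked at the lower light dose. Mitf and Tyrp1 were higher on the treated array and no pigment gene was lower, so 2 of 7 genes were called higher where 13.6% of all genes were, and none lower where 12.6% of all genes were, or 26.2% in either direction. The median over the 7 genes was 0.72, against -0.01 for all 13460 genes. Tyr and Oca2 were not well above background on either back array and had no value. Mitf stood at 70.4% on the treated back array and at 20.5% on the untreated back array, a difference of 1.78 ± 0.20, or 3.43-fold. Its unscaled signal was also higher, from 795 to 892 over the spots of the treated array, against 362 to 401 on the untreated one, and with spike-in scaling the difference was 1.26. The second Mitf probe, at signals of 31.0 in treated and 25.7 in untreated back skin, gave 0.90 ± 0.35.

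Tyrp1 differed by 1.55 ± 0.24 in the back, with spots from 92.4 to 109.1 on the treated array and from 48.7 to 63.0 on the untreated one. No spot of one array reached the range of the other, but these are repeats of 1 probe on 1 array per group and not animals. With normexp the difference of Tyrp1 was 1.09 and with spike-in scaling 1.03, both close to the 2-fold line. Its mean signals of 101 and 53.4 left it without a value where a signal of at least 200 was required. Dct differed by 0.94 on each of its 2 probes and Kit by 0.72 ± 0.28. Slc45a2 differed by -0.78 ± 0.21, Mc1r by -0.30 ± 0.22 and Pmel by -0.23 ± 0.21, all within 2-fold. Within the back arrays the change of Mitf, on its brighter probe, exceeded that of Pmel by 2.01 ± 0.30 and that of Tyrp1 exceeded that of Pmel by 1.78 ± 0.32. After normexp these values were 1.66 and 1.14.

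**Figure D3:**
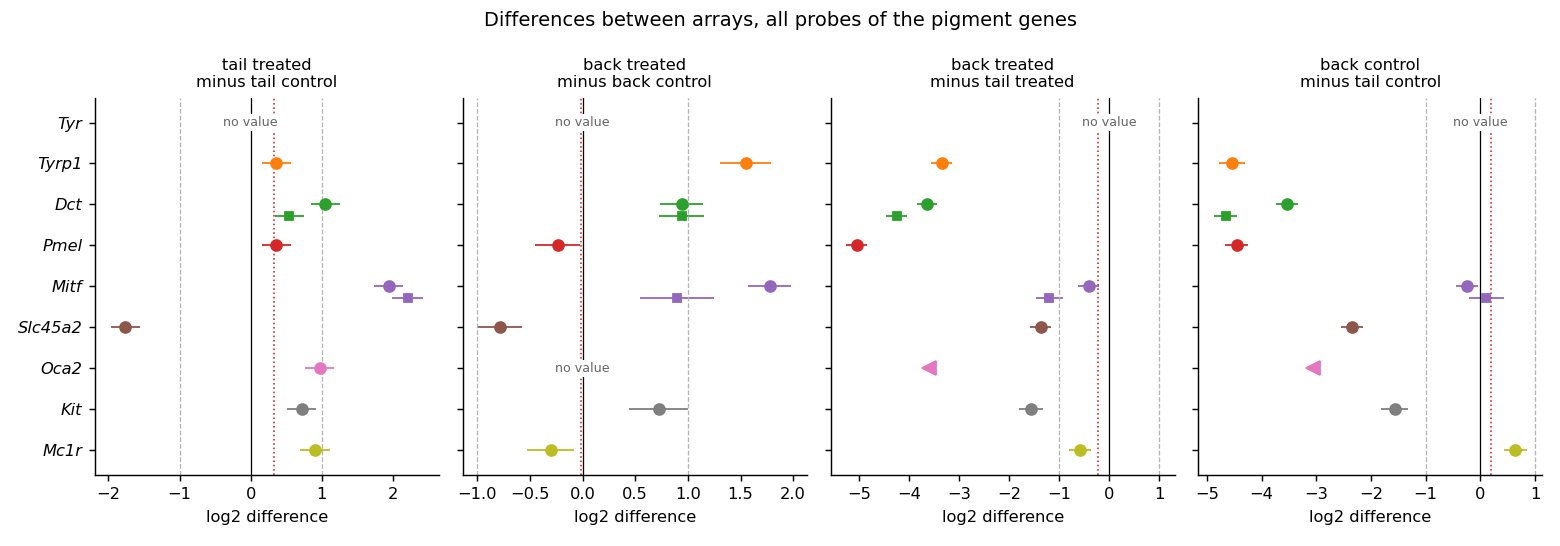
Log2 differences (horizontal axis) of every probe of the pigment genes in the treated minus untreated tail, the treated minus untreated back, the treated back minus treated tail and the untreated back minus untreated tail. Circles are the probe that represents the gene, squares the second probe, bars the spot error, arrowheads bounds, dashed lines the 2-fold limits and the red dotted line the median of all genes. Mitf is the gene called higher in both treatment comparisons, and Slc45a2 the one called lower in the tail.

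Set side by side, the responses of Mitf were 1.78 in the back and 1.94 in the tail on its brighter probe, and 0.90 and 2.20 on its second probe. Those of Kit were 0.72 in both with 75th percentile scaling, but 0.62 in the back and 2.81 in the tail with normexp. With spike-in scaling those of Kit were 0.20 and -1.41. Scaled to the 75th percentile, the response of Tyrp1 was 1.19 larger in the back than in the tail and that of Slc45a2 0.98 less negative. That of Mc1r was 1.21 smaller in the back. Over the 11281 genes measured on all 4 arrays, the median of this difference of responses was -0.20. These differences depend on the scaling. With normexp the back and tail responses were 1.09 and 0.44 for Tyrp1, -0.45 and -0.59 for Slc45a2 and 0.07 and 2.99 for Mc1r. With spike-in scaling they were 1.03 and -1.76 for Tyrp1, -1.30 and -3.89 for Slc45a2 and -0.82 and -1.21 for Mc1r. Those of Mitf were then 1.26 and -0.18 on its brighter probe. The light dose differed between the skins, and no difference of responses was tested.

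**Figure D4:**
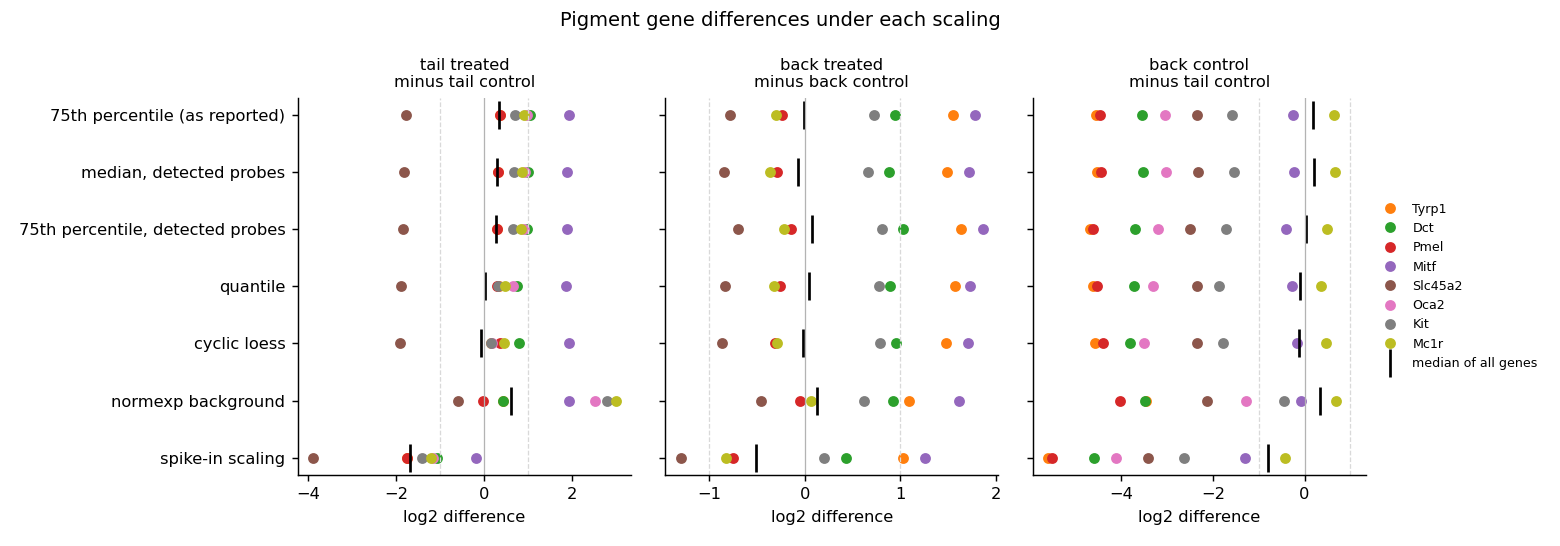
Log2 difference (horizontal axis) of each pigment gene with a value, for the treated minus untreated tail, the treated minus untreated back and the untreated back minus untreated tail, under each scaling or background correction (rows). Black bars are the median of all genes and dashed lines the 2-fold limits. In the right panel Tyrp1, Dct and Pmel stay to the left of the black bar in every row, while in the left panel spike-in scaling moves the set to the left with the bar.

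The wider pigment pathway was looked at through 55 further genes in lists of ligands, transcription factors and melanosome parts, of which 49 were on the arrays. In untreated back against untreated tail skin, 7 of 44 of these genes with a value were higher and 11 were lower (median 0.08), beside 27.4% and 17.2% of all genes. The lower ones included 3 of the 8 melanosome membrane genes with a value. In that list 1 gene was higher, Atp7a at 1.74, and the median was -0.07. Gpnmb, a Pmel-related glycoprotein of melanocytes and macrophages, had signals of 324, 277, 2627 and 33482 on the treated back, untreated back, treated tail and untreated tail arrays, and differed by -4.96 in the untreated and -3.43 in the treated pair. Slc24a5, a cation exchanger needed for pigmentation, differed by -3.41 and -3.71 in these pairs, and by -1.96 and -3.12 with normexp. Lef1, a transcription factor of the Wnt pathway that acts with Mitf on Dct and is also made in hair matrix cells, differed by -3.11 and -3.86, and by -1.33 and -3.09 with normexp. In contrast F2rl1, the keratinocyte receptor that promotes uptake of melanosomes, was 3.12 and 3.58 higher in the back, and 3.11 and 1.17 higher with normexp. Genes of melanosome biogenesis, most of which serve lysosome-related organelles in many cells, had a median of -0.06 in the untreated pair. Of 19 genes 6 were lower, among them Snapin at -2.13 and Hps1 at -1.78. The 2 higher ones were Rab32 at 1.98 and Rab38 at 1.56, and in the treated pair these 2 differed by 1.95 and 1.14.

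In the tail after treatment, 11 of 45 of the further genes were higher and 2 lower, beside 27.2% and 6.55% of all genes. Among ligands, the Kit ligand Kitl differed by -1.91, with signals of 98.8 on the treated and 2965 on the untreated tail array, although normexp put it at 0.35. Endothelin 3 (Edn3), its receptor Ednrb and the melanocortin precursor Pomc were 2.05, 1.59 and 1.67 higher, with spike-in scaling -0.08, -0.53 and -0.45, and with normexp 4.86, 3.05 and 4.89. The Edn3 and Pomc probes were dim, at 26.2 and 22.1 on the treated tail array. In the back, 5 of 44 of the genes were higher and 4 lower, beside 13.6% and 12.6% of all genes. The transcription factor Snai2, which melanoblasts need and keratinocytes also express, was 2.71 higher, the cystine transporter Slc7a11, which feeds yellow pigment and glutathione, 2.04 higher, and Lef1 1.52 higher, or 0.88 with normexp. The lysosome trafficking gene Lyst differed by -1.74 and the melanosome GTPase gene Rab38 by -1.22. In the tail, Lef1 and Slc7a11 were also higher, at 2.26 and 1.00, or 0.14 and -1.12 with spike-in scaling. Snai2 was not, at -0.32.

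Markers of other skin cells were measured on the same arrays. Hair matrix and shaft genes, made in the follicle bulb where follicular melanocytes work, were lower in 9 of 9 cases in treated back against treated tail skin and in 8 of 9 in the untreated pair, beside 20.5% and 17.2% of all genes. Of these values 5 were measured in the treated and 4 in the untreated pair, and the others are bounds. Hair keratin probes were saturated in the tail, 4 of them on the treated and 5 on the untreated tail array, so no exact sum can be given for the whole list there. The summed level of the 5 hair genes saturated on no array was 1.37 times the 75th percentile on the treated back array, 3.44 on the untreated back array, 17.7 on the treated tail array and 8.59 on the untreated tail array. The hair transcription factor Hoxc13 differed by -4.90 in the treated pair, or -3.77 with normexp, and by -4.25 in the untreated pair, and Foxn1 by -2.95 and -2.82. After treatment 7 of 9 hair genes were lower in the back, with a median of -1.60, beside 12.6% of all genes. In the tail 1 of 4 was higher, with a median of 0.59, beside 27.2% of all genes. The part of these hair genes' differences in those of the pigment genes was not tested.

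Mast cells, which also express Kit and Mitf, gave summed levels over 9 markers of 1.47 on the treated back array, 1.01 on the untreated back array, 0.38 on the treated tail array and 0.20 on the untreated tail array. The sums rest mainly on single genes, on Hdc with a level of 1.15 on the treated back array and on the receptor gene Mrgprb2 with 0.722 on the untreated back array. In treated back against treated tail skin 2 of 7 markers were higher and 2 lower, beside 15.9% and 20.5% of all genes. In the untreated pair 4 of 7 were higher and 1 lower, beside 27.4% and 17.2% of all genes, and the one that was lower was the protease gene Mcpt4, at -2.14. After treatment 4 of 6 mast cell markers were higher in the tail and none lower, beside 27.2% and 6.55% of all genes, and in the back 3 of 7 were higher and 2 lower, beside 13.6% and 12.6%. Hdc, the histamine-forming enzyme that neutrophils also make, differed by 3.85 in the back and 2.22 in the tail, where normexp gave 4.84 and spike-in scaling 0.10. In the back response Mcpt4 was also higher, at 1.67, or 1.00 with normexp. The 2 lower ones were Mrgprb2 at -3.14 and Tpsb2, with a bound of -1.63, or -0.30 with normexp. The mast cell carboxypeptidase Cpa3 could be measured only on the untreated tail array, at a signal of 25.4. The part of mast cells in the differences of Mitf and Kit was not tested.

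**Figure D5:**
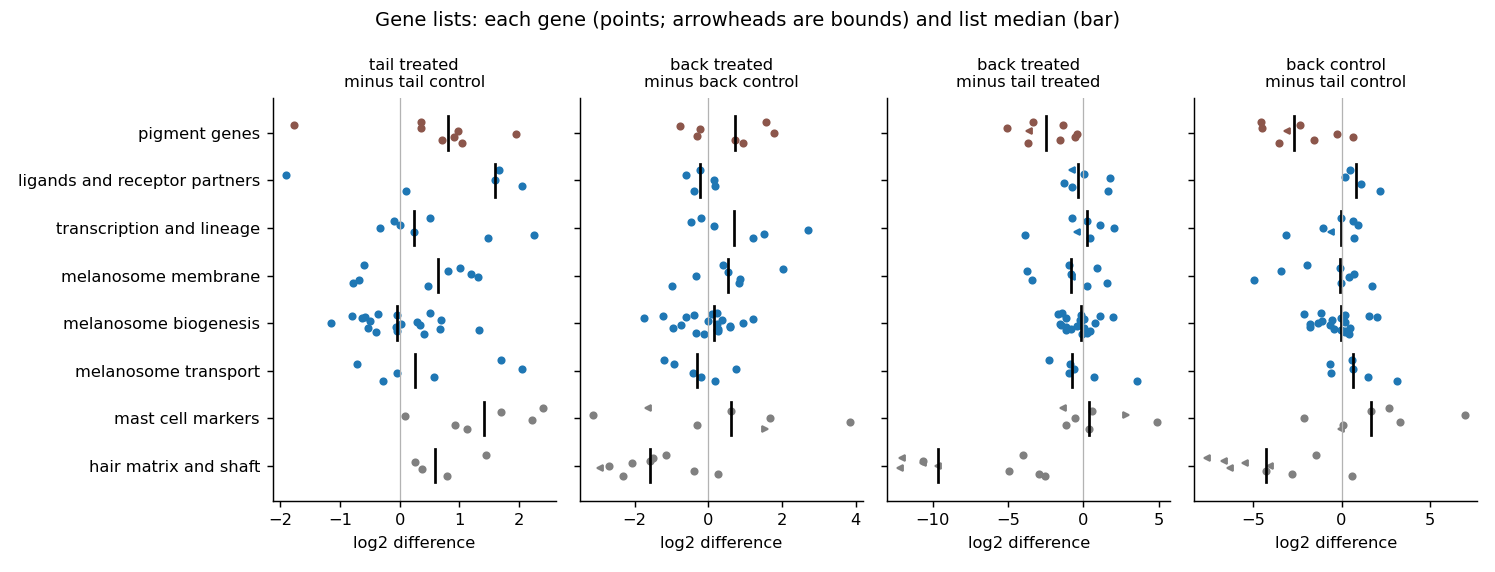
Log2 difference (horizontal axis) of each gene with a value in the pigment set, 5 further pigment lists, mast cell markers and hair matrix and shaft markers, in the same 4 comparisons as above. Points are measured differences, arrowheads bounds and black bars list medians. In both back minus tail panels the pigment genes and the hair genes lie mostly to the left of 0, and the other pigment lists lie around it.

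Genes with the pattern most like that of the melanin genes were sought among 11281 genes measured on all 4 arrays, by the root mean square distance from the median profile of Tyrp1, Dct, Pmel and Slc45a2, each centred over the arrays. The pigment genes themselves and genes with clone or predicted names were left out of the ranking. The 5 nearest were Hunk at 0.17, Pcolce2 at 0.20, Slc24a5 at 0.26, Srl at 0.26 and Car2 at 0.28 log2 units. By the same measure the 4 genes that define the profile lay at 0.25 (Tyrp1), 0.27 (Dct), 0.64 (Pmel) and 1.39 (Slc45a2). Kit, Mitf and Mc1r lay at 1.14, 1.85 and 1.98. With 4 arrays many genes share such a profile, so the order is a description. Slc24a5 was the one gene of the fixed pigment lists among these 5.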

How the data were processed

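Total RNA (200 ng) labelled with Cy3 was hybridised to Agilent arrays, per the labels' protocols, and the 4 arrays, 1 per group, lay on 1 slide. The labels name tail skin and the extraction protocol tail epidermis. The deposited signal is each spot's intensity after background subtraction by Feature Extraction 10.5.1.1, not normalized across arrays, per the file headers, while the submitters' processing notes name version 10.7. Each spot also has deposited scanner flags (0 or 1) for background, saturation and outliers. The authors' deposited log2 table is centred per probe over the 4 arrays, its scaling is not stated, and its column medians were 0.08, -0.03, 0.10 and -0.28 for treated back, untreated back, treated tail and untreated tail. Its differences equalled those of the spot intensities up to a constant, within 0.01, for at least 99.7% of probes, so its scale and direction were known.

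Outlier spots were left out, the log2 signals of a probe's spots averaged, and the 75th percentile of each array subtracted. Of 41171 probes, 24375 (59.2%) matched 1 symbol through a RefSeq table of GRCm38.p6. The files' own build is mm8, so positions are given for promoter windows alone. The brightest probe represented a gene. With 1 array dim or saturated a bound was taken, with the dim side set to the array's lowest well-detected signal, or to its own where that was higher. No p-value was computed, and the number of arrays limits the precision. The pigment genes, lists, rules and alternatives were chosen with earlier results of these data known. The named genes are all members, per further list up to 3 measured genes past 2-fold each way, and the 5 genes of nearest pattern. Alternatives used limma 3.58.1 in R 4.3.3 for normexp (offset 50), quantile normalization and cyclic loess. The calling rule was also run on simulated data in which the scanner's spot error was the only noise. Such data hold no variation between animals or arrays, so they cannot show how reliable calls from 1 array per group are.

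Lists of basal and suprabasal epidermis, fibroblast, dermal papilla and Schwann cell markers were measured too. In untreated back against untreated tail skin their medians were -0.70 for 1 basal gene, 3.23 for 2 suprabasal, 1.75 for 7 fibroblast, 1.21 for 4 dermal papilla and -0.65 for 6 Schwann cell genes. In the tail response fibroblast genes were higher in 4 of 6 cases (median 1.22), dermal papilla genes in 2 of 3 (1.63), suprabasal genes in 1 of 2 (0.76) and Schwann cell genes in 1 of 7 (-0.13), beside 27.2% of all genes, and the 1 basal gene was -2.05. In the back response fibroblast genes were higher in 4 of 7 cases (median 1.24), dermal papilla genes in 1 of 4 (0.24), basal genes in 2 of 3 (1.69) and Schwann cell genes in 1 of 7 (0.17), beside 13.6% of all genes, and suprabasal genes were lower in 2 of 3 (-1.98), beside 12.6%. The part of these lists in the pigment genes' differences was not tested.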

Additional observations from a re-analysis of the deposited data

Results flagged for a closer look

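The treatment differences of Pmel and Mc1r had opposite signs in the skins, with 1 pair of arrays each. Pmel differed by -0.23 in the back and 0.36 in the tail, so its back response minus its tail response was -0.59. Mc1r differed by -0.30 in the back and 0.91 in the tail, and the difference of its responses was -1.21. With normexp the signs were no longer opposed, at -0.05 in the back and -0.02 in the tail for Pmel and at 0.07 and 2.99 for Mc1r. With spike-in scaling all 4 values were negative, at -0.75 and -1.76 for Pmel and at -0.82 and -1.21 for Mc1r. Both genes were then less negative in the back than in the tail. Each of the 4 values first given lay within 2-fold, the median difference of responses over all genes was -0.20, and neither difference was tested.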

How the results depend on the processing

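No paired analysis was possible because each group has 1 array, and for the same reason no replicate could be left out. In untreated back minus tail skin, no alternative gave a pigment gene as higher, and 5 to 7 genes were lower except where a signal of at least 200 left 3 genes, 2 of them lower. The median of -2.70 became -1.70 with normexp, -2.35 with quantile normalization, -2.34 with cyclic loess, -3.41 with spike-in scaling, -2.37 in the authors' deposited table, -2.35 without a filter, with measured values only and with a signal of at least 200, and -2.46 on the treated arrays. In that pair and in the tail response, quantile normalization, cyclic loess and spike-in scaling gave Tyr a bound, for 9 genes with a value. In the tail response, the bounds of Tyr were -0.61, -1.06 and -1.88. There the counts of 2 higher and 1 lower became 4 and 0 with normexp. They became 1 higher with quantile normalization, with the percentile of detected probes and with the mean of a gene's probes. With cyclic loess they were 1 and 2 of 9, Tyr among the lower, and with spike-in scaling 0 and 8 of 9. Its median of 0.81 became 1.19 with normexp, 0.34 with quantile normalization, 0.18 with cyclic loess, -1.41 with spike-in scaling and 0.36 with a signal of at least 200. Spike-in scaling reversed Dct to -1.07 and Mitf to -0.18 in the tail; the cause was not tested. Mitf was past 2-fold in both skins under the other 11 alternatives. In the back response, the 2 higher genes became 1 with a signal of at least 200, where the median over 2 genes was 1.36, and spike-in scaling gave 1 lower. The median of 0.72 became 0.20 with spike-in scaling and 0.49 without a filter. The share of higher tail calls over all genes was 80.6%, and 54.0% after cyclic loess, 57.8% after quantile normalization, 91.5% after normexp and 1.17% with spike-in scaling. Tyr and, in the back, Oca2 were limited by signal over background.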
